A study of Solanum tuberosum with 72 samples.

Results

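STUGE45, RGP2 and xth1 are 3 potato genes for making nucleotide sugars and for rebuilding the cell wall. They were found on a spotted cDNA array by their gene symbol or a RefSeq synonym: STUGE45 (a UDP-glucose epimerase), RGP2 (LOC102601908, a reversibly glycosylated polypeptide, also listed as uptg2) and xth1 (LOC102598951, a xyloglucan endotransglucosylase/hydrolase). The genes were chosen on their stress minus no-stress log2 values in these arrays, so those values are given here as a description. For these genes the word called only marks which values passed the threshold that was applied to every clone, beside the share of all clones that passed it, and is no independent test. The genes took up 8 of 32448 spots. Each cDNA clone was spotted in 2 places, which made 4 of the 11037 clones with a value: 1 for STUGE45, 1 for xth1 and 2 for RGP2, called clones A and B. A further clone, annotated to the xth1 gene together with other loci, was not used.

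Plant cell walls are built from sugars that are first activated as nucleotide sugars. UDP-glucose, made from sucrose by sucrose synthase or from glucose 1-phosphate by UDP-glucose pyrophosphorylase, is the hub, and UDP-glucose epimerases convert it to UDP-galactose and back, which feeds the galactose of pectin and of arabinogalactan proteins. Reversibly glycosylated polypeptides are known from rice and Arabidopsis as mutases that turn the pyranose form of UDP-arabinose into the furanose form found in walls. Xyloglucan endotransglucosylases cut and rejoin the xyloglucan chains between cellulose fibres and so change the stiffness of a wall that has already been laid down.

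Seedlings of the potato variety Gilroy were raised from true seed on rafts in hydroponic boxes for 5 weeks at 25 °C, with 16 h of light and 8 h of dark, and then had their medium replaced. The new medium was chilled to 4 °C with the boxes kept on ice (cold), heated to 35 °C with the boxes in a water bath (heat), supplemented with NaCl (salt) or fresh and otherwise unchanged (no stress). The sample labels give the salt as 150 mM, whereas the accompanying description gives 100 mM, so the dose is uncertain. Leaves (all aerial tissue, per the description) and roots were harvested after 3, 9 and 27 h, and the experiment was run 3 times, which gave 24 groups of 3 arrays and 72 arrays in all. A sample pooled 6 plants from 2 boxes. Each array compared a query RNA, labelled with Cy3, with a Cy5-labelled reference from unstressed plants harvested at the matching hour and from the matching organ, for which 6 boxes were pooled, and no dyes were swapped per the labels. A positive log2 ratio is read here as more RNA in the query, a direction that is likely but not written in the table.

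Ratios within a tissue give no level, so neither the labelled tissue nor the order of these genes by abundance could be checked. In whole organs, a change in the number of cells of a type cannot be told apart from a change in RNA per cell. The number of arrays limits the precision, and the deposited ratios give no depth. Within an organ and hour, the cold, heat and salt comparisons share their no-stress arrays. Correlations between the arrays of a group ran from 0.65 to 0.91 over all clones in the cold groups, and from 0.16 to 0.67 in the no-stress groups. A clone was called where limma's moderated test on the difference from the matching no-stress arrays had a Benjamini-Hochberg adjusted p below 0.05 over all tested clones, and a group needed at least 2 arrays with a value. Where stress arrays are said to lie above or below no-stress arrays, the share of all clones that separate likewise was not counted. Both RGP2 clones had a value on all 72 arrays, and STUGE45 and xth1 on 69 each. STUGE45 had a value on 1 of the 3 root no-stress arrays at 9 h, so its root comparisons at that time were not tested. A spotted cDNA can also bind transcripts of close relatives of its gene, and this was not tested.

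In leaves, STUGE45 stood above the no-stress arrays in cold and in salt at every time. On the 9 no-stress leaf arrays its log2 ratio lay between -0.34 and 0.41, with a median of 0.06. In cold the 3 arrays read 2.38, 1.68 and 1.88 at 3 h, 2.01, 3.44 and 3.27 at 9 h, then 2.57, 2.47 and 2.18 at 27 h. All 9 cold leaf arrays therefore lay above all 9 no-stress arrays, and none of the 9 came within 1 log2 unit of them. The cold minus no-stress difference was 1.91 ± 0.29 (SE, 3 against 3 arrays) at 3 h, 3.06 ± 0.29 at 9 h and 2.23 ± 0.29 at 27 h, or 3.76-, 8.36- and 4.69-fold. All 3 were called higher, as were 9.84%, 12% and 11.4% of all tested clones at those times. Among the absolute differences of all clones they stood at the 99.2, 99.8 and 99.6 percentiles.

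Salt gave STUGE45 a smaller range of values in leaves. The arrays read 0.90, 1.83 and 1.43 at 3 h, 0.87, 1.80 and 1.39 at 9 h, then 2.19, 2.42 and 2.04 at 27 h. All of these again lay above all 9 no-stress leaf arrays. The salt minus no-stress difference was 1.32 ± 0.29 at 3 h, 1.51 ± 0.29 at 9 h and 2.04 ± 0.29 at 27 h. All 3 were called higher, against 0.756%, 3.72% and 5.77% of all tested clones. The call at 3 h ended when any 1 of 3 arrays was left out (no-stress replicate 2, salt replicate 2 or salt replicate 3), with differences of 1.17, 1.10 and 1.30. In heat the 9 leaf arrays ran from -0.29 to 0.65 and the differences were -0.20, 0.44 and -0.12, none of them called. Heat was the treatment with the fewest calls in leaves, at 0.679%, 0.18% and 0.644% of all tested clones.

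In roots, STUGE45 was high in salt from the first time point and high in cold at 9 and 27 h but not at 3 h. The 7 no-stress root arrays with a value ran from -0.28 to 0.66. The salt arrays read 2.51, 2.47 and 2.92 at 3 h, 1.65 and 1.69 at 9 h, then 1.77, 1.35 and 1.97 at 27 h. All 8 salt root arrays with a value lay above all 7 no-stress arrays. The salt differences were 2.39 ± 0.30 at 3 h (5.25-fold) and 1.53 ± 0.30 at 27 h (2.89-fold), both called higher beside 12.1% and 1.69% of all tested clones. The untested difference at 9 h was 1.46. Cold roots at 3 h read 0.14, -0.34 and -0.07, within or below the no-stress values, and the difference was -0.33 ± 0.30, with an interval from -0.96 to 0.29 at 95%. The 9 h cold arrays read 1.56, 1.80 and 1.60. The 27 h cold arrays read 1.80, 1.88 and 0.73. These 6 arrays all lay above the no-stress arrays, although replicate 3 at 27 h was only just above the highest of them. The difference at 27 h was 1.30 ± 0.30 (2.47-fold) and was called higher beside 20.4% of all tested clones, and the untested difference at 9 h was 1.45. Among the absolute differences of all clones the 27 h value stood at the 92.8 percentile. Scaling all arrays to an equal spread brought the 27 h value to 0.64 and ended its call. In heat the root differences were -0.64 at 3 h and -0.37 at 27 h, not called, and -0.32 at 9 h, not tested.

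**Figure D1:**
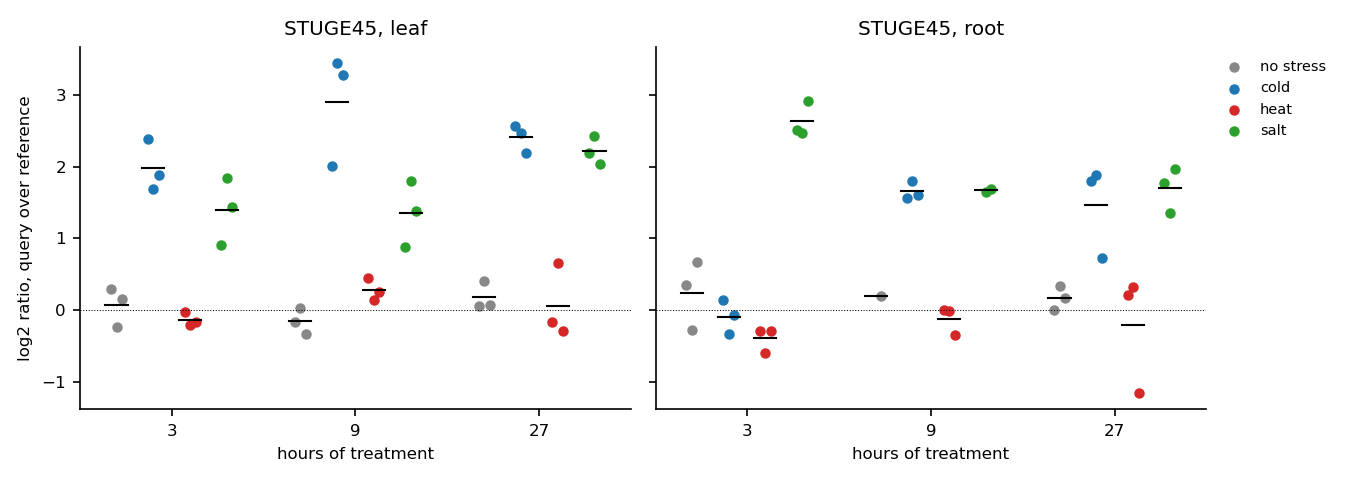
Log2 ratio of STUGE45 (query over reference) on every array with a value, by hours of treatment, in leaf (left) and root (right). Each point is 1 array, each bar is the mean of a group, and colours mark no stress, cold, heat and salt. Cold and salt leaf arrays lie above every no-stress leaf array, whereas the 3 cold root arrays at 3 h lie among or below the no-stress arrays.

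The cold difference of STUGE45 in roots was 1.64 ± 0.43 larger at 27 h than at 3 h, the only time difference of cold or salt that was called for any of the 4 clones. With arrays scaled to an equal spread it was 0.97 and was not called. The share of all tested clones called in that direction was 12.4%, and the shares called in either direction were 2.89% for root salt, 1.37% for leaf cold and 0.128% for leaf salt. In salt-treated roots the change from 3 to 27 h went the other way, by -0.86 ± 0.43, and was not called. It was 0.11 with arrays scaled to an equal spread. Averaged over the 3 times, the cold difference was 1.59 ± 0.27 larger in leaf than in root, a value that was not tested because of the missing 9 h root arrays. Ranked by size among the 15 tested differences, the leaf cold difference at 9 h stood 0.67 above the next one (root salt at 3 h), more than their combined SE of 0.42. The next 8 differences, from 2.39 down to 1.30, had no gap between neighbours larger than the combined SE. Below them came a gap of 0.86 to leaf heat at 9 h, which lay between the 9 called differences and the other tested ones. With nearly equal SEs the called differences tend to be the larger ones, and the gene was chosen on these values. The ranking therefore describes the values and is no test of a separation. The untested root differences in cold and salt at 9 h, 1.45 and 1.46, lay within the range of the called ones.

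STUGE51, a second UDP-glucose epimerase gene of potato with 2 clones on the array, is shown beside it. In roots after 3 h of cold, where STUGE45 was not above the no-stress arrays, STUGE51 clone A read 1.31, 1.29 and 0.90 against 0.34, -0.01 and -0.04 without stress. Clone B read 1.24, 1.12 and 0.80 there, against 0.30, -0.01 and 0.01. Both sets of cold arrays lay above their no-stress arrays. The differences were 1.07 ± 0.30 (limma, adjusted p = 0.0154) and 0.95 ± 0.29 (adjusted p = 0.0296), both called higher beside 6.18% of all tested clones. At 9 and 27 h in cold roots neither clone was called (0.16 and 0.19 at 9 h, 0.36 and 0.64 at 27 h). In cold leaves both clones were called higher at 3 h, by 0.80 ± 0.27 and 1.02 ± 0.34. At 9 h, where STUGE45 had its highest value, both stood at -0.18 and were not called. At 27 h clone A was called higher (0.77 ± 0.27) and clone B was not (0.85 ± 0.34). In salt clone B was called higher in roots at 3 h, by 0.89 ± 0.29, and clone A, at 0.58 ± 0.30, was not. Each of these 6 STUGE51 calls ended when some single array was left out (differences from 0.59 to 1.10 where it ended). Whether the 2 genes differed from each other was not tested.

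RGP2 was higher in cold in both organs at all 3 times, with differences from 0.58 to 1.40. Its 2 clones can be read as a repeat measurement of the same gene. Over the 72 arrays their log2 ratios had a Pearson r of 0.97 and a mean absolute difference of 0.12, and the 2 spots of each clone had an r of 0.98 (A) and 0.99 (B). The clones share every RNA and every hybridisation, so this is a measure of spotting error and not of the plants.

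Without stress, leaf arrays of clone A lay between -0.56 and -0.05 and those of clone B between -0.45 and 0.10. In cold leaves clone A read 0.43, 1.02 and 0.63 at 3 h, 0.44, 0.69 and 0.37 at 9 h, then 1.47, 1.40 and 0.93 at 27 h. Clone B read 0.41, 1.17 and 0.75 at 3 h, 0.50, 0.87 and 0.48 at 9 h, then 1.39, 1.63 and 0.86 at 27 h. For both clones all 9 cold leaf arrays lay above all 9 no-stress leaf arrays. The cold differences were 1.12, 0.81 and 1.40 (SE 0.23) for clone A and 1.10, 0.80 and 1.32 (SE 0.26) for clone B, with a highest value of 2.64-fold in clone A at 27 h. All 6 were called higher, beside 9.84%, 12% and 11.4% of all tested clones. Among the absolute differences of all clones they stood at the 96.2, 90.1 and 98.1 percentiles (A) and the 96.0, 89.7 and 97.8 percentiles (B). The call at 9 h ended for both clones without cold replicate 2 (0.72 and 0.67), and for clone B also without no-stress replicate 2 or 3 (0.75 and 0.70).

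In cold roots clone A read -0.28, 0.35 and -0.06 at 3 h, 0.16, 0.33 and 0.37 at 9 h, then 0.65, 1.03 and 1.07 at 27 h. Clone B read -0.09, 0.43 and 0.10 at 3 h, 0.43, 0.45 and 0.41 at 9 h, then 0.47, 1.04 and 1.19 at 27 h. At each time the cold arrays of each clone lay above the no-stress arrays of that time. The differences were 0.64, 0.59 and 0.98 (SE 0.21) for clone A and 0.68, 0.58 and 0.89 (SE 0.17) for clone B, all 6 called higher, beside 6.18%, 14.1% and 20.4% of all tested clones. Among the absolute differences of all clones they stood at the 89.4, 80.1 and 87.4 percentiles (A) and the 90.5, 79.6 and 85.0 percentiles (B). The 3 h call of clone A ended without cold replicate 2 or 3 or no-stress replicate 2 or 3 (0.46, 0.67, 0.70 and 0.41), and that of clone B without cold replicate 2 or no-stress replicate 3 (0.54 and 0.53). The 9 h call of clone A ended without any 1 of the 5 arrays other than cold replicate 1, at 0.55 to 0.64.

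The no-stress root arrays at 3 h were themselves low for RGP2. They read -0.30, -0.50 and -1.09 for clone A and -0.29, -0.47 and -0.82 for clone B. Their means, -0.63 and -0.53, were the only no-stress means of the 4 clones that were called different from 0, where 2.86% of all tested clones were called lower. The shares called in the other no-stress groups were 0.0613%, 0.747% and 0.00985% in leaf and 3.28% and 1.44% in root. The cold root arrays at 3 h had means of 0.00 and 0.15. Against 0 instead of the no-stress arrays, neither clone was called there. The same held for salt-treated roots at 3 h, where the arrays read 0.49, 0.10 and 0.02 for clone A and 0.13, 0.21 and -0.05 for clone B. Their differences from the no-stress arrays were 0.84 ± 0.21 and 0.62 ± 0.17, both called higher, but their means were 0.20 and 0.10. Without no-stress replicate 3 the difference of clone B was 0.48 and was no longer called.

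Other RGP2 differences were not called. In salt-treated leaves they were 0.13, 0.64 and 0.54 for clone A and 0.15, 0.46 and 0.49 for clone B. At 9 and 27 h all 3 salt arrays lay above the no-stress arrays for both clones. The clones share every hybridisation, so they are not independent observations of this, and how many of all clones separate likewise was not counted. In salt-treated roots they were 0.33 and 0.12 at 9 h, where 3.08% of all tested clones were called higher, and -0.12 and -0.19 at 27 h. The change from 3 to 27 h in salt-treated roots was -0.96 ± 0.30 and -0.81 ± 0.24, not called, and with arrays scaled to an equal spread it was -1.03 and -0.93, called lower. In heat, leaf differences ran from -0.08 to 0.53 over both clones. At 3 h, where they were 0.51 (A) and 0.53 (B), all heat leaf arrays lay above the no-stress arrays for both clones. Root differences in heat were 0.30 and 0.30 at 3 h, -0.42 and -0.47 at 9 h, then -0.27 and -0.09 at 27 h. At 9 h all heat root arrays of both clones lay below the no-stress arrays. The limits given for salt-treated leaves hold for these heat arrays of leaf and root as well. The cold difference averaged over times was 0.38 ± 0.18 larger in leaf than in root for clone A (95% interval 0.01 to 0.74) and 0.36 ± 0.18 for clone B (0.00 to 0.72), not called. No gap between neighbours in the ranking of the 18 differences exceeded their combined SE for clone A, and 1 did for clone B, between its 2 lowest.

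**Figure D2:**
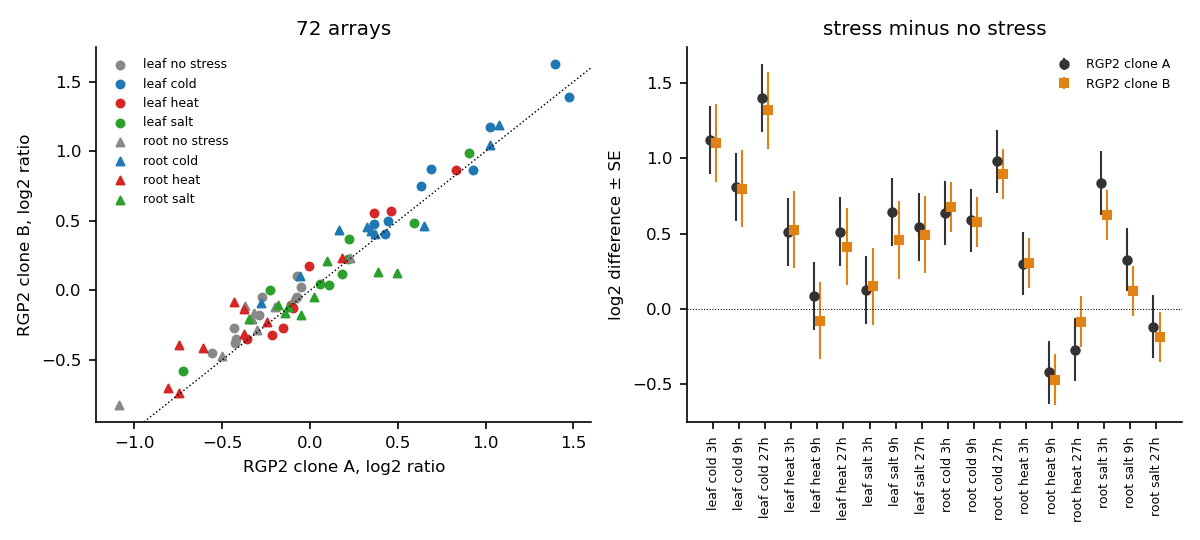
Left, log2 ratio of RGP2 clone B against clone A on each of the 72 arrays (circles leaf, triangles root, colours by treatment, dotted line equal values). Right, log2 difference of each clone from the no-stress arrays ± SE in the 18 comparisons. The clones lie along the line of equal values (r 0.97), and both stand highest in leaf cold at 27 h (1.40 and 1.32).

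xth1 had the one called difference between organs among the clones of the 3 genes that could be tested for it, with larger cold values in root than in leaf. In cold roots it read 1.76, 2.20 and 2.22 at 3 h, 1.92, 1.82 and 2.41 at 9 h, then 3.06, 2.55 and 0.78 at 27 h. The 9 no-stress root arrays ran from -0.51 to 0.16, the 9 salt arrays from -0.28 to 0.14 and the 9 heat arrays from -0.54 to 0.69. Every cold root array thus lay above every root array of the other treatments, the closest being replicate 3 of cold at 27 h. The cold differences were 2.17, 2.29 and 2.20 (SE 0.34), or 4.51-, 4.90- and 4.59-fold, and all 3 were called higher, beside 6.18%, 14.1% and 20.4% of all tested clones. Among the absolute differences of all clones they stood at the 99.1, 98.9 and 98.4 percentiles. Without replicate 3 the 27 h difference was 2.87, and with arrays scaled to an equal spread the 9 and 27 h differences were 1.66 and 1.29, still called. The difference did not move between 3 and 27 h by more than its error, at 0.02 ± 0.48, and was -0.63 with arrays scaled to an equal spread.

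In leaves the cold arrays of xth1 were highest at the first time. They read 1.48, 1.19 and 1.27 at 3 h, 0.24, 0.79 and 0.83 at 9 h, then 0.83, 0.39 and 0.30 at 27 h. The no-stress arrays with a value read -0.51, 0.00 and -0.28 at 3 h, 0.37 and -0.70 at 9 h, then -0.26 and -0.36 at 27 h. The groups did not overlap at 3 and 27 h and overlapped at 9 h, where 1 no-stress array lay above the lowest cold array. The differences were 1.58 ± 0.40 (2.99-fold, called higher), 0.79 ± 0.45 and 0.81 ± 0.45 (neither called). The change from 3 to 27 h, -0.76 ± 0.60, was not called. Heat-treated leaves were spread widely, from -0.93 to 1.21 on 8 arrays, with differences of 0.94, 0.00 and 0.61, not called. At 3 h the 2 heat leaf arrays with a value, 0.17 and 1.19, lay above the 3 no-stress arrays. How many of all clones separate likewise was not counted. Salt gave 0.15, 0.35 and 0.22 in leaf and 0.18, 0.22 and 0.03 in root, and heat gave 0.31, 0.14 and 0.37 in root, none called. The 2 spots of xth1 correlated less well than those of RGP2 (r 0.94) and differed on average by 0.21.

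Averaged over the 3 times, the leaf minus root value of the cold difference of xth1 was -1.16 ± 0.33 (95% interval -1.81 to -0.51). It was called lower in leaf, as were 9.53% of all tested clones. The same value with arrays scaled to an equal spread was -0.52 and was not called. For heat and salt the leaf minus root differences of xth1 were 0.25 ± 0.33 and 0.10 ± 0.33, not called, and 1.63% and 4.13% of all tested clones were called there. RGP2 clones A and B stood at 0.50 and 0.37 for heat and at 0.09 and 0.18 for salt, not called.

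**Figure D3:**
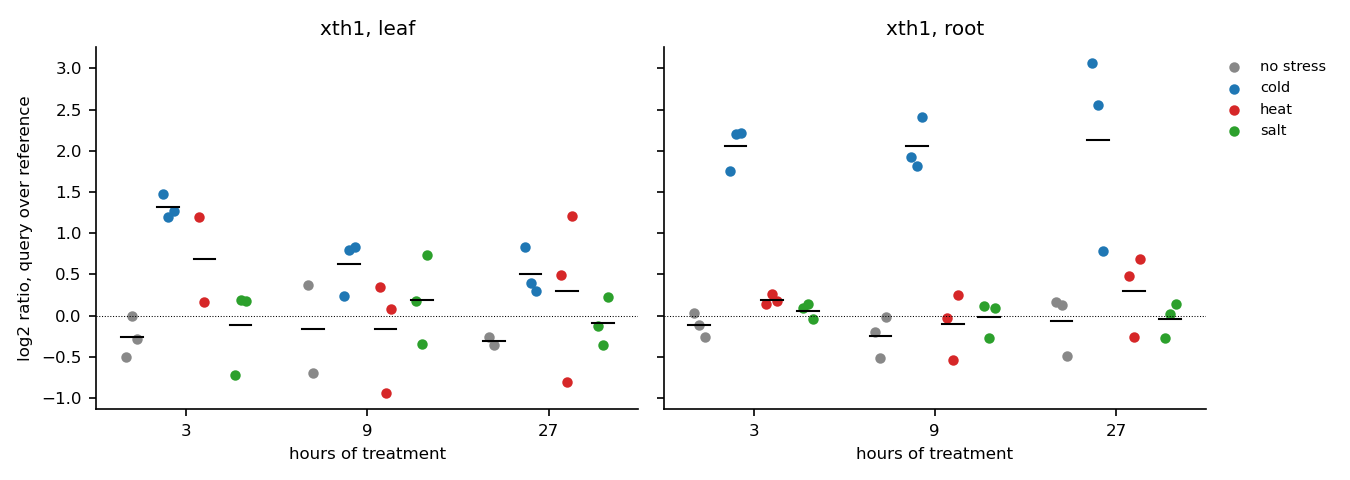
Log2 ratio of xth1 (query over reference) on every array with a value, by hours of treatment, in leaf (left) and root (right). Each point is 1 array, each bar is the mean of a group, and colours mark the treatments. The 9 cold root arrays, from 0.78 to 3.06, lie above all other root arrays, and the cold leaf arrays are highest at 3 h.

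Photosynthesis transcripts were lower on many of the stressed root arrays, and their part in the root results was not tested. The list held 15 clones of 4 genes (PSBR, PSBO, cab1 and psbP, proteins of photosystem II and its antenna). Their median log2 ratio on cold root arrays was -1.01, -0.25 and -0.39 at 3 h, -1.25, -1.15 and -0.60 at 9 h, then -2.42, -2.13 and -1.43 at 27 h. On the no-stress root arrays it ran from -0.28 to 0.30. In heat it was -1.12, -0.27 and -0.01 at 3 h, -1.14, 0.38 and -0.05 at 9 h, then -3.01, -0.67 and -0.99 at 27 h, so that at 3 and 9 h replicate 1 alone lay below the no-stress range. In salt it was -0.35, -0.64 and -0.50 at 3 h, all below that range, then -0.57, -0.41 and -0.04 at 9 h, and lay within it at 27 h. Within cold roots at 27 h the array with the smallest fall of this median, replicate 3, was the one on which STUGE45 and xth1 were lowest. RGP2 was highest on that array in both clones.

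Other genes of wall building were described from a list of 14 clones of 10 genes, of which 12 clones of 8 genes could be tested. PME1 (a pectin methylesterase) and XEGIP1 (an inhibitor of xyloglucan-cutting enzymes) had too few arrays with a value. Counts are given over list clones, with STUGE51 among them. Clones of 1 gene share every hybridisation and are not independent, so counts can exceed the number of genes. The higher calls in cold leaves were STUGE51 clones A and B and CCoAOMT at 3 h, and sus4 clones A and C and CCoAOMT at 9 h. At 27 h they were sus4 clones A, B and C, STUGE51 clone A and CCoAOMT. In salt-treated leaves they were sus4 clones A and C and CCoAOMT, and in cold roots at 3 h STUGE51 clones A and B. In cold leaves 3, 3 and 5 of 12 were called higher at 3, 9 and 27 h, beside 9.84%, 12% and 11.4% of all clones, and 1 and 2 were called lower at 3 and 9 h, beside 6.93% and 10.5% of all clones called lower. The list's median difference was 0.05, -0.18 and 0.27, against -0.01, -0.01 and 0.00 for all tested clones. In cold roots 2, 1 and 2 of 11 were called higher, beside 6.18%, 14.1% and 20.4% of all clones, and 2 lower at 27 h, where 18.6% of all clones were called lower, with medians of 0.12, 0.16 and 0.36. In salt-treated leaves none, 3 and 3 of 12 were called higher, beside 0.756%, 3.72% and 5.77% of all clones, and 2 and 1 lower at 9 and 27 h, beside 3.76% and 6.09% of all clones. In salt-treated roots 2, 2 and 1 of 11 were called higher, beside 12.1%, 3.08% and 1.69% of all clones. The list medians in salt were 0.15, -0.10 and 0.20 in leaf and 0.36, 0.05 and 0.00 in root, where the medians of all tested clones lay between -0.01 and 0.01. Of the 39 called differences of list clones, tissue differences included, 16 lost their call without some single array. In heat 1 clone was called in all, lower in root at 27 h, where 9.91% of all clones were called lower. The shares called in either direction in heat-treated roots were 7.25%, 5.82% and 20%, and none of the 4 clones of STUGE45, RGP2 and xth1 was among them. STUGE45 was not tested there at 9 h.

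The genes that supply UDP-glucose moved in different directions. sus4, a sucrose synthase that cleaves sucrose to UDP-glucose and fructose, was called higher in cold leaves at 9 h by 1.26 ± 0.20 and 1.32 ± 0.18 (clones A and C) and at 27 h by 0.70 and 0.53. The same clones were higher in salt-treated leaves at 9 h (1.21 and 1.08) and 27 h (1.03 and 0.997). Clone B stood at 0.19 in cold at 9 h and at 0.20 and 0.21 in salt at 9 and 27 h, not called, and was called higher in cold at 27 h (0.47). The cold calls at 27 h ended without cold replicate 1 for clone A (0.52), and for clone C without any 1 of 4 arrays (0.37 to 0.53). In roots clone A was called once, in salt at 9 h (1.07 ± 0.31), a call that ended without any 1 of 5 arrays. Clone B was not tested in roots. At 3 h in cold leaves, where STUGE45, RGP2 and xth1 were all called higher, sus4 clones A, B and C stood at -0.09, 0.30 and 0.13 and were not called. UGPase, the UDP-glucose pyrophosphorylase, was called in clone A only, lower in cold leaves at 3 h (-0.58 ± 0.16) and in cold roots at 27 h (-0.53 ± 0.18). Clone B stood at -0.47 and -0.40 there and was called in none of the 18 comparisons. Each call of clone A ended without either of 2 arrays, at -0.35 and -0.52 in leaf and at -0.45 in root for both.

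Invertases split sucrose into free glucose and fructose. InvCD141, a cell-wall type invertase gene, was lower in cold leaves at 9 h (-1.23 ± 0.33, and -0.93 and not called without cold replicate 3), in salt-treated leaves at 9 h (-1.51 ± 0.33) and at 27 h (-1.74 ± 0.33), and higher in cold roots at 27 h (1.73 ± 0.42). The leaf minus root value of its cold difference was -1.37 ± 0.32 (adjusted p = 0.00121, limma), on the same side as that of xth1. With arrays scaled to an equal spread that value was -0.69 and the cold root value at 27 h was 0.64, and neither was called. InvCD111, another gene of that type, was lower in heat-treated roots at 27 h (-1.12 ± 0.28, and -0.65 and not called without heat replicate 1) and PAIN-1, the vacuolar acid invertase, in cold roots at 27 h (-0.63 ± 0.18). PEST2, a pectinesterase that removes methyl groups from pectin, was lower in leaves at 9 h in cold (-1.32 ± 0.17) and in salt (-1.24 ± 0.17), and was called in no other comparison with the no-stress arrays. The leaf minus root value of its cold difference was -0.60 ± 0.18, also called lower.

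CCoAOMT, the caffeoyl-CoA O-methyltransferase that makes feruloyl units for lignin and wall cross-links, was called higher in 10 of 18 comparisons and in none lower. Of these calls 3, all in salt, ended without some single array (leaf at 9 h and root at 9 and 27 h). In cold leaves its differences were 1.35, 2.21 and 2.22 (SE 0.30). In cold roots they were -0.08 (not called), 1.22 and 1.52, and in salt-treated roots 1.66, 1.01 and 1.18 (SE 0.27). In salt-treated leaves they were 0.79 (not called), 1.07 and 1.26. With arrays scaled to an equal spread the cold values at 27 h were 1.63 in leaf and 0.85 in root, still called. As for STUGE45, the cold root difference at 3 h was the only negative one in cold and salt. Neither was called, and both 95% intervals spanned both signs (-0.63 to 0.30 for CCoAOMT, -0.96 to 0.29 for STUGE45). Its cold difference was 1.04 ± 0.24 larger in leaf than in root (adjusted p = 0.00106, limma), where 10.5% of all tested clones were called higher.

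**Figure D4:**
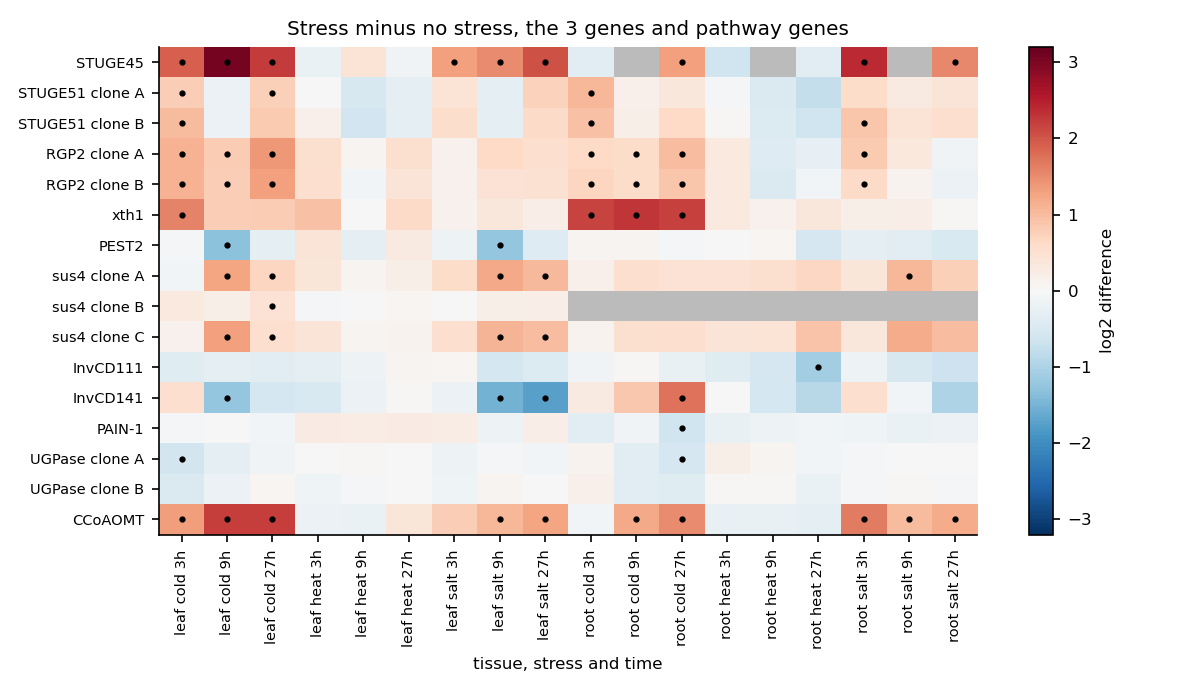
Log2 difference from the no-stress arrays for the clones of STUGE45, RGP2 and xth1 and for the pathway clones that could be tested (rows), in the 18 comparisons of tissue, stress and time (columns). Red is higher and blue lower under stress, dots mark clones called by limma and grey marks comparisons not tested. STUGE45 and CCoAOMT are mostly high in cold and salt, and both have a gap in root cold at 3 h. STUGE45 is not tested in root at 9 h, and CCoAOMT is not called in leaf salt at 3 h. xth1 is high in root cold.

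The named genes most like each gene over the 24 group means were found by Pearson correlation among about 8735 clones with a value in every group. The group means share references and no-stress plants, so these values describe likeness only. The genes were picked for this likeness, so a pattern that they share with STUGE45, RGP2 or xth1 is no separate observation. For STUGE45 they were CCoAOMT (r 0.95), RSI5 (0.94) and pp34 (0.86), and 5 clones without a name had a higher r than CCoAOMT. RSI5 had differences of 2.90, 3.13 and 2.84 in cold leaves and of -0.63, 3.16 and 2.81 in cold roots. For RGP2 clone A they were the calcium-dependent protein kinase StCDPK5 (r 0.88), SHKA (0.87), an enzyme at the entry of the shikimate pathway, and the 14-3-3 protein 30G (0.86), with 4 unnamed clones above StCDPK5. For xth1 they were the phosphatase 2C StP2C (r 0.91), the transcription factor STWRKY8 (0.89) and the MAP kinase StWIPK (0.87), with 23 unnamed clones above StP2C. In cold roots the differences of StWIPK were 0.82, 2.04 and 2.28, and those of xth1 2.17, 2.29 and 2.20. In cold leaves StWIPK stood at 2.40, 1.03 and 0.98, highest at 3 h, as xth1 did.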

How the data were processed

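Log2 ratios were used as deposited by the authors, with direction and scale checked only as far as the labels allow. Per the labels, Cy3 marked the query and Cy5 the reference. The sources used here do not give the background correction, the normalization, the scanner or the spot filter. Array medians lay between 0 and 0.014, and an array had a value for 15580 to 20545 spots. The place of each clone's second spot was inferred from 905 annotated spot pairs, all of which carried the same accessions, and a clone's value is the mean of its 2 spots or the 1 present. Gene names came from the platform annotation and from RefSeq names of the potato assembly SolTub_3.0, with no coordinates and no sequences used.

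The fit was limma 3.58.1 in R 4.3.3 on the 36 arrays of a tissue, with 12 group means and no block, or on all 72 arrays for differences between tissues. P-values were adjusted by Benjamini-Hochberg over all tested clones, with a threshold of 0.05. The fit was tested on simulated data. Replicates are the 3 numbered arrays of a group, and the labels say that the experiment was run independently 3 times. The genes and lists were chosen with earlier results of these data known. 6 list genes matched terms fixed from the labels, and 4 more (PAIN-1, PME1, PEST2 and XEGIP1) were added once the annotation names were read. The annotation has no gene descriptions, so the lists hold symbols and synonyms only. Named genes were all clones of the 3 genes, the 3 named genes most correlated with each, and called list genes. The alternatives were 11 settings and leaving out each of the 72 arrays in turn.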

Additional observations from a re-analysis of the deposited data

Results flagged for a closer look

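The cold difference of xth1, averaged over the 3 times, differed between the organs, with a leaf minus root value of -1.16 ± 0.33 on the log2 scale. With arrays scaled to an equal spread it was -0.52 and was not called. In root the cold differences were 2.17, 2.29 and 2.20, and in leaf 1.58, 0.79 and 0.81.

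The cold difference of STUGE45 in roots differed between times, with a 27 h minus 3 h value of 1.64 ± 0.43. It was -0.33 at 3 h and 1.30 at 27 h. With arrays scaled to an equal spread the difference between times was 0.97 and was not called. Both genes were chosen with these values known, so neither test is independent of the choice. Groups held 3 arrays each, too few for a search for single outlying arrays.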

How the results depend on the processing

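No stress minus no-stress difference of STUGE45, RGP2 or xth1 that was called turned its direction under the 11 settings or with any 1 of the 72 arrays left out. Differences between organs and times were refitted only with the replicate block and with arrays scaled to an equal spread, and the called ones with single arrays left out. The numbers of called comparisons were 9 for STUGE45, 7 for each RGP2 clone and 4 for xth1. With 1 array left out they ran from 8 to 9, 6 to 7 (clone A), 5 to 7 (clone B) and 4 to 4, and the calls over all clones, 20355 in the 18 comparisons together, ran from 18866 to 21325. Array weights gave 30828 calls over all clones, and stress arrays set against 0 gave 47481. With arrays scaled to an equal spread, the number of leaf minus root differences called among these clones went from 1 to 0 (xth1 at -0.52), and that of 27 h minus 3 h differences from 1 to 2. There STUGE45 in cold roots was lost at 0.97, and RGP2 in salt-treated roots was gained at -1.03 (clone A) and -0.93 (clone B). That scaling also brought STUGE45 to 2.35 and 1.52 in cold leaves at 9 and 27 h and to 1.58 in salt-treated roots at 3 h, all still called. The cause was not tested. With any 1 array left out, the leaf minus root value of xth1 stayed called, between -1.39 and -1.01, as did the root cold time difference of STUGE45, between 1.43 and 2.01. Of the 39 called differences of the list clones 23, and of the 29 of STUGE45, RGP2 and xth1 22, kept their call whichever single array was left out. Medians of all clones moved by at most 0.014 under another centring or scaling. With 1 array per group allowed, the STUGE45 differences in roots at 9 h were 1.45 in cold, 1.46 in salt and -0.32 in heat. All of them rest on the same 1 no-stress array. Fitted on only the 6 arrays compared, RGP2 lost its calls in cold and salt-treated roots at 3 h in both clones.

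The labels say that the experiment was run 3 times but not that a replicate number marks a run, so the numbers were tested as pairs. Deviations of stress and no-stress arrays of the same number correlated over 0.1 in 21 of 27 leaf pairs and 23 of 27 root pairs. Their median r was 0.30 and 0.21, against -0.15 and -0.11 for different numbers. Deviations from a group mean cancel out within the group, so the negative values follow from the positive ones and are no independent reference. Not every pair passed 0.1, so the numbers were not taken to pair the samples. Even so, 45 of 54 stress arrays correlated best with the no-stress array of their own number. A replicate block gave 22515 calls over all clones and left the counts at 9, 7, 7 and 4.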
